A study of Mus musculus with 6 samples.

Results

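Tuft cells are rare epithelial cells of the gut that sense the contents of the lumen, and 31 genes that mark them or carry their signalling were followed through the RNA-seq tables of small intestinal epithelium. The 31 were taken by name from a list, and each matched exactly 1 of the 51912 gene identifiers in the tables. Antigen-free (AF) mice met foreign antigens neither from microbes nor from food, germ-free (GF) mice lacked a microbiota, and specific pathogen free (SPF) mice were kept clear of particular pathogens alone. All were C57BL/6 mice, and each group had 2 libraries from sorted small intestinal epithelium, AF replicates 2 and 3, GF replicates 1 and 3, and SPF replicates 3 and 4. The sources used here give neither ages, diets nor any pooling of animals. The labels do not tie libraries to separate animals, so the spread behind each p-value may be technical.

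Tuft cells depend on the transcription factor POU2F3 and use parts of the taste cascade, in which a receptor activates a G protein and a phospholipase, calcium is released and the channel TRPM5 opens. Intestinal tuft cells are the main epithelial source of the cytokine IL-25 and also make cysteinyl leukotrienes and prostaglandins. In mice these act on group 2 innate lymphoid cells, whose IL-13 in turn acts on crypt cells to give more tuft and goblet cells. Succinate from protists and some bacteria is one known trigger, through the receptor SUCNR1.

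Across the 27 genes of the list that passed the low-count filter, levels mostly stood highest in AF, lower in GF and lowest in SPF, but none of them passed the test adjusted over all genes in any comparison. Mean levels were in the order AF, GF, SPF for 23 of these 27 genes, an order found in 21.1% of the 13644 genes tested. The exceptions were Plcg2, Tas1r3, Ltc4s and Hpgds, and the 4 genes too low to be tested were Gnat3, Gng13, Gnb3 and Il25. The summed level of all 31 genes was 589 and 548 CPM in AF, 303 and 429 CPM in GF, and 209.5 and 85.4 CPM in SPF. CPM values are counts relative to each library's total after TMM scaling, a correction for unequal RNA composition, and pairs of values follow the order of the replicate numbers. In RNA from many cells, fewer tuft cells and less of these transcripts per tuft cell cannot be told apart.

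The libraries differed within groups and in more than the antigen exposure. They held 16109488 to 19417054 expected counts, so that 3 counts, the floor used here, were 0.109 to 0.236 CPM (counting error only). SPF replicate 4 stood apart: it was the lowest library for 23 of the 27 genes, against 34% of all genes tested. It was also the lowest for the crypt, goblet, Paneth and enteroendocrine marker lists. The 4 Y-linked genes examined had 0 counts in both SPF libraries and 760 to 1692 counts in each AF and GF library. Dates, as far as marks in the file names show them, also differ by group. Sex and date therefore cannot be told apart from the group in AF versus SPF and GF versus SPF, nor date in AF versus GF. With diets not given, other differences in food cannot be told apart from food antigens in AF versus GF or AF versus SPF.

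**Figure D1:**
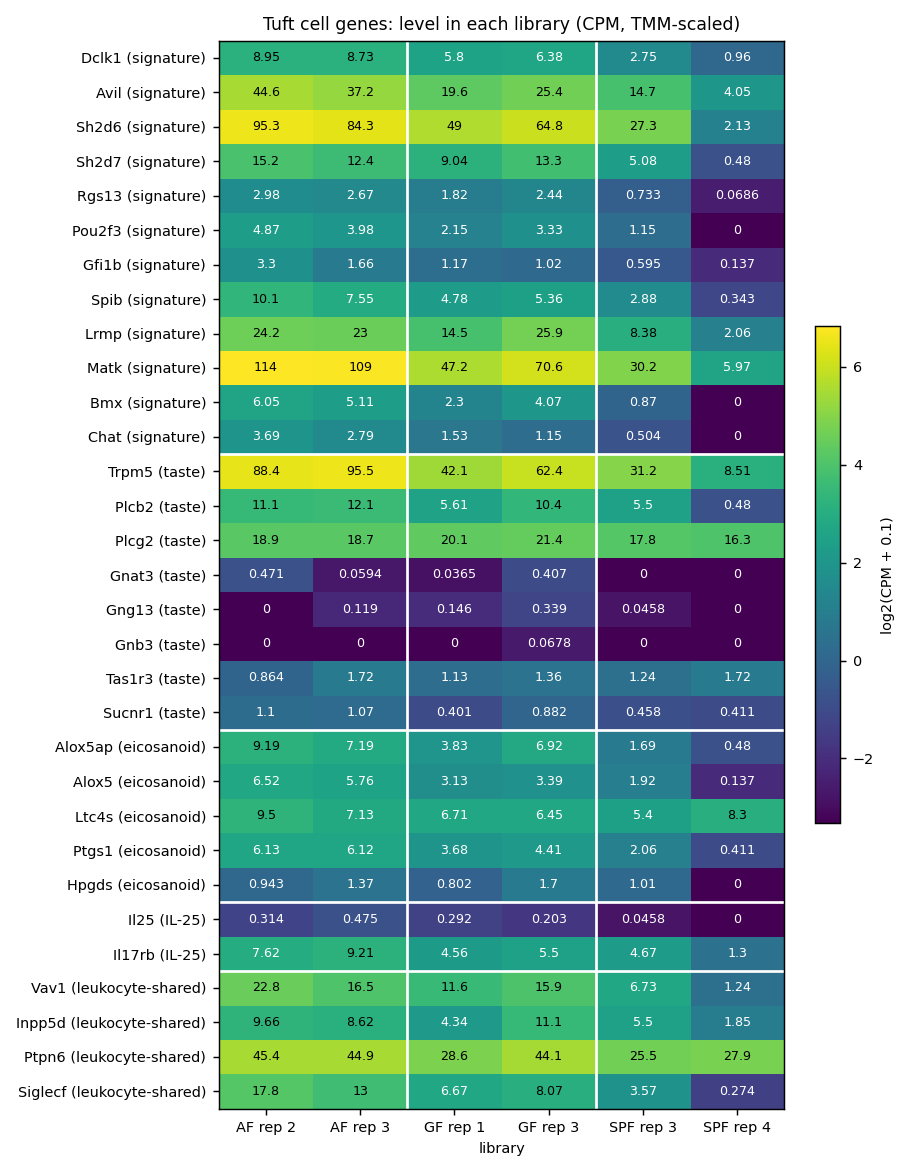
Level of each of the 31 tuft cell genes (rows, grouped by role) in each library (columns), as CPM printed in the cells and coloured by log2(CPM + 0.1). Most rows darken towards SPF replicate 4 (for Sh2d6, 95.3 CPM in AF replicate 2 and 2.13 CPM in SPF replicate 4), while Plcg2, Tas1r3 and Ltc4s vary less.

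Compared per transcript length, in TPM averaged over the 6 libraries, 6 of the 31 genes stood at 10 TPM or more, 16 between 1 and 10 TPM and 9 below 1 TPM. Sh2d6, which encodes an SH2 domain protein (chromosome 6, 72513641 to 72521707 on GRCm38), had the highest mean level of the list at 68.1 TPM. It was followed by the tyrosine kinase gene Matk at 36.2 TPM and the channel gene Trpm5 at 21.0 TPM. The lowest were 3 genes of the taste G protein, Gnat3, Gng13 and Gnb3, and the cytokine gene Il25.

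The 12 genes of transcription factors and other signature proteins had the most uniform pattern. With TMM scaling all 12 stood above the SPF libraries in every AF and GF library, against 11.5% of all genes tested. With the deposited TPM Avil did not, at 7.9 TPM in GF replicate 3 and 8.11 TPM in SPF replicate 3. Dclk1, a microtubule-associated kinase widely used to stain tuft cells (chromosome 3, 55242364 to 55539068), measured 8.95 and 8.73 CPM in AF, 5.80 and 6.38 CPM in GF, and 2.75 and 0.960 CPM in SPF. Pou2f3, the factor without which tuft cells do not form (chromosome 9, 43123939 to 43210369), measured 4.87 and 3.98 CPM in AF, 2.15 and 3.33 CPM in GF, and 1.15 and 0 CPM in SPF. For both genes the 3 groups did not overlap with TMM scaling, and 0 counts in SPF replicate 4 allow up to 0.206 CPM. Gfi1b, a zinc finger repressor, measured 3.30 and 1.66 CPM in AF, 1.17 and 1.02 CPM in GF, and 0.595 and 0.137 CPM in SPF. Spib, an ETS family factor that M cells also use, measured 10.1 and 7.55 CPM in AF, 4.78 and 5.36 CPM in GF, and 2.88 and 0.343 CPM in SPF. The 3 factors thus gave the same order of groups as Dclk1.

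Sh2d6 measured 95.3 and 84.3 CPM in AF, 49.0 and 64.8 CPM in GF, and 27.3 and 2.13 CPM in SPF. Sh2d7, also an SH2 domain protein, measured 15.2 and 12.4 CPM in AF, 9.04 and 13.3 CPM in GF, and 5.08 and 0.480 CPM in SPF, so that AF and GF overlapped. Within SPF these 2 genes differed by 12.9-fold and 10.6-fold between replicate 3 and replicate 4. Avil, an actin-bundling protein of the tuft cell's microvilli, measured 44.6 and 37.2 CPM in AF, 19.6 and 25.4 CPM in GF, and 14.7 and 4.05 CPM in SPF. Rgs13, which shortens G protein signals, measured 2.98 and 2.67 CPM in AF, 1.82 and 2.44 CPM in GF, and 0.733 and 0.0686 CPM in SPF. Avil and Rgs13 kept the 3 groups apart with TMM scaling.

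Lrmp, a protein of the endoplasmic reticulum linked to calcium release, measured 24.2 and 23.0 CPM in AF, 14.5 and 25.9 CPM in GF, and 8.38 and 2.06 CPM in SPF. GF replicate 3 was its highest library. Matk measured 114 and 109 CPM in AF, 47.2 and 70.6 CPM in GF, and 30.2 and 5.97 CPM in SPF. Bmx, a kinase of the Tec family, measured 6.05 and 5.11 CPM in AF, 2.30 and 4.07 CPM in GF, and 0.870 and 0 CPM in SPF. Both kinases kept the 3 groups apart. Chat, which makes acetylcholine in tuft cells and in cholinergic neurons, measured 3.69 and 2.79 CPM in AF, 1.53 and 1.15 CPM in GF, and 0.504 and 0 CPM in SPF. The neuronal marker Slc18a3, a vesicular acetylcholine transporter whose gene lies within Chat, had 0 counts in all 6 libraries. The 11 enteric neuron markers, Slc18a3 among them, summed to 31.8 and 40.3 CPM in AF, 17.6 and 44.6 CPM in GF, and 15.25 and 6.58 CPM in SPF. All 3 of them that were tested were positive in AF versus SPF, with a median log2 fold change of 1.89. Which cells the Chat counts came from was not tested.

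The taste transduction genes split into those that followed the signature and those that were flat or near the floor. Trpm5, the cation channel (chromosome 7, 143069153 to 143094642), measured 88.4 and 95.5 CPM in AF, 42.1 and 62.4 CPM in GF, and 31.2 and 8.51 CPM in SPF. Plcb2, the phospholipase of taste signalling, measured 11.1 and 12.1 CPM in AF, 5.61 and 10.4 CPM in GF, and 5.50 and 0.480 CPM in SPF. Neither gene overlapped between groups with TMM scaling, though Plcb2 in GF replicate 1 lay close to SPF replicate 3. Sucnr1, the succinate receptor, measured 1.10 and 1.07 CPM in AF, 0.401 and 0.882 CPM in GF, and 0.458 and 0.412 CPM in SPF, on 6 to 18 counts a library. Its AF libraries lay above the others, and GF and SPF overlapped.

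Plcg2, a phospholipase that lymphoid and myeloid cells also use, measured 18.9 and 18.7 CPM in AF, 20.1 and 21.4 CPM in GF, and 17.8 and 16.3 CPM in SPF. Tas1r3, a subunit of the sweet and umami taste receptors, measured 0.864 and 1.72 CPM in AF, 1.13 and 1.36 CPM in GF, and 1.24 and 1.72 CPM in SPF. Plcg2 was nearly level across libraries, and the 3 groups overlapped for Tas1r3. Tas1r3 overlaps Dvl1 on the opposite strand, which had 3588 to 4440 counts in each library, and the strand setting of the counting is unknown. Gnat3, the alpha subunit gustducin, had 6 and 1 counts in AF, 1 and 6 counts in GF, and 0 in both SPF libraries. Gng13, the gamma subunit, had at most 4.52 expected counts in a library, and Gnb3, the beta subunit, had 1 count in GF replicate 3 and 0 in the other 5 libraries. For Gng13, GF over SPF gave 9 against 1 rounded counts, 7.77-fold on scaled levels (95% counting interval 1.08 to 341), and the interval of AF over GF, 0.0333 to 1.53, included 1. Gng13 overlaps Chtf18 on the opposite strand. For Gnat3 the interval of AF over GF, 0.427 to 4.77, also included 1, and Gnb3 was too low to compare. The counting intervals leave out the spread between libraries, so they do not test the groups.

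Promoter windows of 250 bases before the RefSeq start (GRCm38.p6) were read for 26 of the 31 genes, 29 windows in all, to see whether genes that stood high together share the POU octamer. The letters searched were ATGCAAAT on either strand, bound by POU factors such as POU2F3. They occurred in 2 of the 29 windows, 6.9%, and in 1.6% of 32851 promoter windows of the same length, taken over all genes with such a window. No window was at hand for Pou2f3, Il25, Alox5ap, Lrmp and Gnb3. The 2 were those of Sucnr1, starting 48 bases before the start site, and of Hpgds, 174 bases before it, both on the gene's own strand. Neither gene kept AF and GF above SPF, while the windows of Trpm5 and Sh2d6, which did, held no match. The ETS core GGAAGT, bound by factors such as SPIB, occurred in 8 of the 29 windows, 27.6%, and in 19.7% of all windows. A match or its lack in such a window says nothing about binding. The windows of Trpm5 and Sh2d6 and the 2 with an octamer, in capitals, read as follows, 5′ to 3′. The Sh2d6 window lies inside the GENCODE gene, and so does most of the Hpgds window, its octamer included. For both genes the outermost GENCODE transcript starts further upstream than the RefSeq one.
Trpm5, chr7:143094643-143094892, minus strand: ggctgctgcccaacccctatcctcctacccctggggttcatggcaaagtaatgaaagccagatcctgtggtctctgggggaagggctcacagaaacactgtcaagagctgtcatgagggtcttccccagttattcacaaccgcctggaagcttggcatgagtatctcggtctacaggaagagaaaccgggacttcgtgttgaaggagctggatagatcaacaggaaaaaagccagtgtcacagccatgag
Sh2d6, chr6:72520037-72520286, minus strand: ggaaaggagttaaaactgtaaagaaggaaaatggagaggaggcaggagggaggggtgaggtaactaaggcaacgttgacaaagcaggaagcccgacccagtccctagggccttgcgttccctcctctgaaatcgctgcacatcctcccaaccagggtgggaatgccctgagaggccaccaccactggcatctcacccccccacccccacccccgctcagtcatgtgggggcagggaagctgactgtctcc
Sucnr1, chr3:60081619-60081868, plus strand: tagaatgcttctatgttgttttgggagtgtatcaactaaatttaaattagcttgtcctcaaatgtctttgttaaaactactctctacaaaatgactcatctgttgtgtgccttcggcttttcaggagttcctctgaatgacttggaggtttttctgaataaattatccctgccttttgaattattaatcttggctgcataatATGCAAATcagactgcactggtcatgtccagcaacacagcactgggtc
Hpgds, chr6:65144731-65144980, minus strand: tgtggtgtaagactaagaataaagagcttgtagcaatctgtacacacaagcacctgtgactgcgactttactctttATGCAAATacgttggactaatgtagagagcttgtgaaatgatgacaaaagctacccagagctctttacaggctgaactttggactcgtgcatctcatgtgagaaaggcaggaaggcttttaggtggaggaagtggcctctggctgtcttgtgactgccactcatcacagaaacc

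Of the 5 eicosanoid enzymes, 3 followed the signature. Alox5ap, the protein that hands arachidonic acid to 5-lipoxygenase, measured 9.19 and 7.19 CPM in AF, 3.83 and 6.92 CPM in GF, and 1.69 and 0.480 CPM in SPF. Alox5, the lipoxygenase itself, measured 6.52 and 5.76 CPM in AF, 3.13 and 3.39 CPM in GF, and 1.92 and 0.137 CPM in SPF. Ptgs1, the constitutive cyclooxygenase, measured 6.13 and 6.12 CPM in AF, 3.68 and 4.41 CPM in GF, and 2.06 and 0.412 CPM in SPF. In all 3 the groups did not overlap with TMM scaling. Ltc4s, which joins glutathione to leukotriene A4, measured 9.50 and 7.13 CPM in AF, 6.71 and 6.45 CPM in GF, and 5.40 and 8.30 CPM in SPF, and was higher in SPF replicate 4 than in SPF replicate 3. Hpgds, a prostaglandin D synthase, measured 0.942 and 1.37 CPM in AF, 0.802 and 1.70 CPM in GF, and 1.01 and 0 CPM in SPF. For both, SPF replicate 3 or 4 fell inside the range of the other groups.

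Il25, the alarm cytokine of tuft cells, had 4 and 8 counts in AF, 8 and 3 counts in GF, and 1 and 0 counts in SPF, and did not pass the filter. The ratio of scaled levels was 14.8 for AF over SPF, with an exact 95% counting interval of 2.19 to 632, and 9.5 for GF over SPF, with an interval of 1.38 to 409. For AF over GF it was 1.56, with an interval of 0.629 to 3.89, which included 1. These intervals cover counting error only and leave out the spread between libraries, so none of these ratios was tested as a difference between groups. Il17rb, a subunit of the IL-25 receptor that tuft cells themselves carry, measured 7.62 and 9.21 CPM in AF, 4.56 and 5.50 CPM in GF, and 4.67 and 1.30 CPM in SPF. With TMM scaling its AF libraries lay above all others, and SPF replicate 3 fell between the GF libraries.

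The 4 remaining genes are also strongly expressed by leukocytes, whose markers were measured beside them. Vav1, a guanine nucleotide exchange factor, measured 22.8 and 16.5 CPM in AF, 11.6 and 15.9 CPM in GF, and 6.73 and 1.24 CPM in SPF. Siglecf, a sialic acid receptor of tuft cells and eosinophils, measured 17.8 and 13.0 CPM in AF, 6.67 and 8.07 CPM in GF, and 3.57 and 0.274 CPM in SPF. Both kept the 3 groups apart with TMM scaling. Inpp5d, an inositol phosphatase, measured 9.66 and 8.62 CPM in AF, 4.34 and 11.1 CPM in GF, and 5.50 and 1.85 CPM in SPF. Ptpn6, the phosphatase SHP-1, measured 45.4 and 44.9 CPM in AF, 28.6 and 44.1 CPM in GF, and 25.5 and 27.8 CPM in SPF. Both were higher in GF replicate 3 than in GF replicate 1, as were 24 of the 27 genes past the filter, against 50.1% of all genes. GF replicate 3 also held more lymphocyte RNA, and the part of this RNA in the levels was not tested.

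The summed level of the 16 markers of intraepithelial lymphocytes and T cells was 23.6 and 15.6 CPM in AF, 43.9 and 423 CPM in GF, and 253 and 94.3 CPM in SPF. It was thus lowest in AF, where the tuft cell genes were highest. Cd8b1 was at 0 in AF replicate 2 and GF replicate 1, and Cd3d in AF replicate 3. The 10 myeloid markers summed to 5.97 and 6.48 CPM in AF, 10.8 and 24.9 CPM in GF, and 18.0 and 9.81 CPM in SPF. The 12 mast cell and eosinophil markers, among them Prg2 and Il5ra at 0 throughout, summed to 0.119 to 0.814 CPM.

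Without microbes and food antigens, AF versus SPF gave the largest of the 3 pairwise medians, yet none of the 27 genes passed edgeR's quasi-likelihood test, in which 0.044% of all genes were called. The median log2 fold change was 2.27 over the 27 genes and 0.011 over all genes, and 26 of the 27 were positive. Both AF libraries lay above both SPF libraries for 24 of the 27 genes, against 22% of all genes; Tas1r3, Ltc4s and Hpgds were the exceptions. Dclk1 had a log2 fold change of 2.23 (SE 0.52, edgeR adjusted p = 0.361) and Alox5ap one of 2.87 (SE 0.66, edgeR adjusted p = 0.361). For Avil it was 2.11 (SE 0.57, edgeR adjusted p = 0.381), for Trpm5 2.21 (SE 0.59, edgeR adjusted p = 0.381) and for Pou2f3 2.86 (SE 1.20, edgeR adjusted p = 0.443). At an unadjusted p below 0.05, 19 genes were higher and 0 lower, against 4.76% and 6.52% of all genes. That count fell on leaving out either AF library, and was 7 with library totals alone. The share of all genes at this threshold was not counted in these fits. DESeq2 called 9 higher, against 2.03% of all genes in either direction, and the likelihood ratio test of edgeR 6, against 2.18%. The calls were 0 with limma on log2(TPM + 1), against 0.066%, and 19 with edgeR without the low-count filter, against 3.53%. Without SPF replicate 4 the median was 1.56 with 27 of 27 positive, and without SPF replicate 3 it was 4.07. The lone SPF library was then assumed to vary like the others.

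GF versus SPF, the comparison without and with a microbiota, had the same direction at a smaller size. The median was 1.61 over the 27 genes and 0.022 over all genes, with 25 positive, and edgeR called 0 of them and 0.0147% of all genes. Both GF libraries lay above both SPF libraries for 21 of the 27, against 16.8% of all genes. Alox5ap had a log2 fold change of 2.26 (SE 0.65), Dclk1 one of 1.69 (SE 0.51), Lrmp 1.93 (SE 0.64), Rgs13 2.31 (SE 0.89) and Trpm5 1.39 (SE 0.58), each at an edgeR adjusted p of 0.738. For Pou2f3 it was 2.16 (SE 1.18, edgeR adjusted p = 0.744). At an unadjusted p below 0.05, 7 genes were higher and 0 lower, against 3.2% and 3.51% of all genes. The 7 became 3 with only the groups compared and 2 with library totals alone. The count also fell on leaving out any AF or GF library, and rose on leaving out either SPF library. The share of all genes at this threshold was not counted in these fits. DESeq2, limma and the likelihood ratio test called 0, against 0.586%, 0.0413% and 0.711% of all genes. edgeR without the low-count filter called 11, against 2.13%. The median was 0.87 without SPF replicate 4, with 26 of 27 positive, and 3.30 without SPF replicate 3.

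AF versus GF, which compares mice that also lacked food antigens with mice that lacked microbes alone, gave smaller differences. The median was 0.61 over the 27 genes and -0.023 over all genes, and 25 of 27 were positive. edgeR called 0 of the 27 and 0.0147% of all genes, and at an unadjusted p below 0.05 it gave 0 higher and 0 lower, against 1.52% and 2.07% of all genes. The count higher was 9 with only the AF and GF libraries fitted and 5 without the low-count filter. It also rose on leaving out either SPF library. The share of all genes at this threshold was not counted in these fits, so their counts have no background. The other tools, DESeq2, the likelihood ratio test and limma, also called 0, against 0.381%, 0.388% and 0.0743% of all genes. Both AF libraries lay above both GF libraries for 21 of the 27, against 15.8% of all genes; Sh2d7, Lrmp, Plcg2, Tas1r3, Hpgds and Inpp5d were the exceptions. Gfi1b had a log2 fold change of 1.17 (SE 0.75), Matk one of 0.92 (SE 0.67), Avil 0.86 (SE 0.54), Trpm5 0.82 (SE 0.57), Pou2f3 0.70 (SE 1.09) and Dclk1 0.54 (SE 0.49), each at an edgeR adjusted p of 1. These SEs draw on the spread of all 3 groups, SPF included. With only the AF and GF libraries fitted, they were 0.21 for Avil, 0.25 for Matk and 0.25 for Trpm5, with edgeR adjusted p of 0.524, 0.581 and 0.632. Leaving out GF replicate 1 gave a median of 0.41, and leaving out GF replicate 3 one of 0.89.

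**Figure D2:**
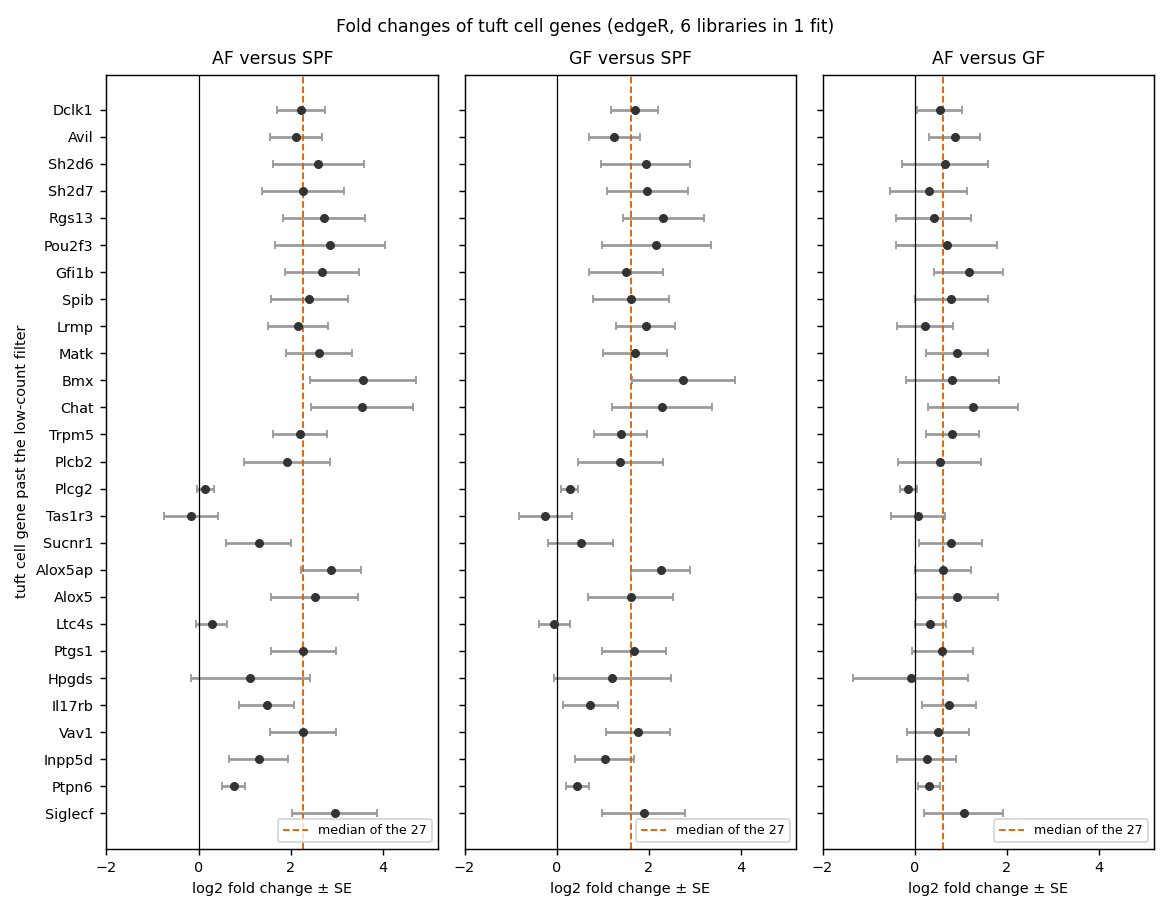
Fold changes (log2, edgeR fit of all 6 libraries, with SE bars) of the 27 tuft cell genes past the low-count filter in AF versus SPF, GF versus SPF and AF versus GF, with dashed lines at the medians of 2.27, 1.61 and 0.61. Plcg2, Tas1r3 and Ltc4s lie near 0 in all 3 panels.

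The separation of AF from GF depended on how libraries were scaled, and that of both from SPF did so less. With library totals alone, without TMM, AF lay above GF for 13 of the 27 genes, against 5.73% of all genes. With the deposited TPM it was 12 of 27, against 4.12%, and with median-of-ratios size factors 20 of 27, against 15.3%. Dclk1, for instance, stood at 1.68 and 2.24 TPM in AF and at 1.99 and 1.65 TPM in GF. Rgs13, Plcb2, Ptgs1, Il17rb and Vav1 were also among the genes that overlapped between AF and GF with library totals and with TPM. The median log2 fold change of the members in AF versus GF was 0.34 with library totals, 22 of 27 being positive, and 0.21 with limma on log2(TPM + 1), 16 of 24 being positive. Library totals moved the median fold change of all genes in AF versus GF to -0.38, and relative to it the 27 genes had a median of 0.71, against 0.64 with TMM. Mitochondrial transcripts, which take part of each total, were 35.3% and 28.7% of the counts in AF, 17.9% and 32.1% in GF, and 18.1% and 27.2% in SPF. Their part in the result was not tested. AF and GF together lay above SPF for 21 of the 27 genes with TMM, against 11.5% of all genes, for 20 with library totals, against 7.07%, for 21 with median-of-ratios factors, against 11.6%, and for 19 with TPM, against 4.36%.

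**Figure D3:**
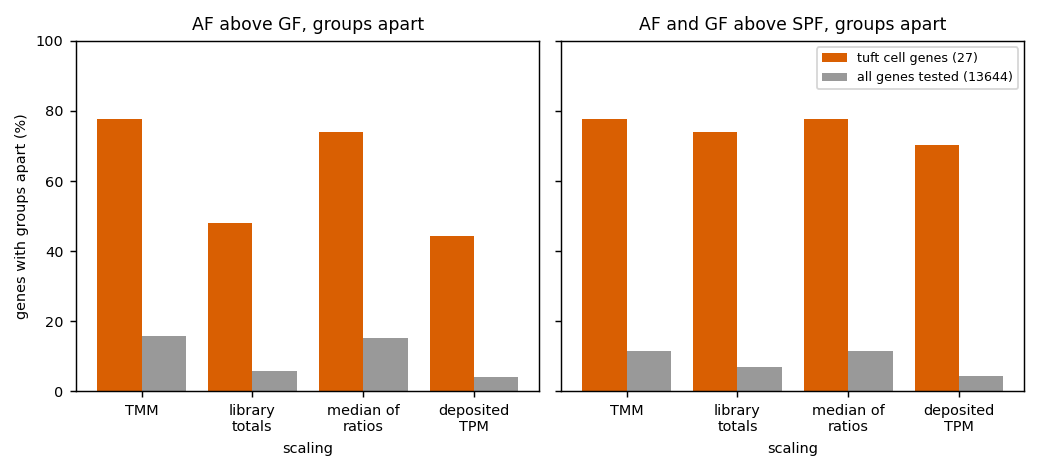
Share of genes (%) whose libraries do not overlap, AF above GF (left) and AF with GF above SPF (right), under 4 scalings, for the 27 tuft cell genes (orange) and all 13644 genes tested (grey). The orange share in the left panel drops to 13 and 12 of 27 genes with library totals and TPM, and stays at 19 to 21 of 27 in the right panel.

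The AF and GF libraries pooled against SPF gave a median of 2.01 with 26 of 27 genes positive and 0 called by edgeR, against 0.0293% of all genes. Alox5ap had a log2 fold change of 2.56 (SE 0.61), Dclk1 one of 1.96 (SE 0.47) and Lrmp 2.04 (SE 0.59), at edgeR adjusted p = 0.380, 0.380 and 0.383. For Trpm5 it was 1.80 (SE 0.53, edgeR adjusted p = 0.388) and for Pou2f3 2.51 (SE 1.10, edgeR adjusted p = 0.455). At an unadjusted p below 0.05, 17 genes were higher and 0 lower, against 4.76% and 6.79% of all genes. The count higher was 6 with library totals alone, and also fell on leaving out any AF or GF library. The share of all genes at this threshold was not counted in these fits. DESeq2 called 7, against 1.82% of all genes, the likelihood ratio test 3, against 1.97%, and limma 0, against 0%. edgeR without the low-count filter called 18, against 3.68%. Without SPF replicate 4 the 4 AF and GF libraries lay above SPF replicate 3 for 22 of the 27 genes, against 19.9% of all genes, and the median was 1.26. Without SPF replicate 3 they lay above SPF replicate 4 for 24 of the 27, against 36.6%, and the median was 3.72. The comparisons share libraries, so their values are not independent of each other.

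Other genes known from tuft cells, which are not among the 31, had the same direction with smaller medians. Of 33 tested, 28 were positive in AF versus SPF (median 1.28), 28 in GF versus SPF (0.92) and 26 in AF versus GF (0.31), and edgeR called 0 in each. Cwh43 measured 10.9 and 10.6 CPM in AF, 4.85 and 14.99 CPM in GF, and 2.47 and 0.892 CPM in SPF. Plk2, a polo-like kinase, measured 16.6 and 13.8 CPM in AF, 10.4 and 11.8 CPM in GF, and 7.56 and 4.94 CPM in SPF. With TMM scaling Plk2 kept the groups apart, and Cwh43 overlapped between AF and GF. Ptprc, the leukocyte antigen CD45 that some tuft cells also carry, was lower in AF than in SPF, at 2.67 and 1.96 CPM in AF, 2.88 and 17.0 CPM in GF, and 12.8 and 6.52 CPM in SPF.

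The rest of each pathway, taken as a list, did not share this direction. Of 12 other taste transduction genes tested, 5 were positive in AF versus SPF, with a median of -0.082, and of 7 other eicosanoid genes 3 were positive, with a median of -0.061. Of 13 genes of the type 2 circuit 4 were positive, with a median of -0.33. Over all genes tested, 50.9% were positive. Among the positive ones in AF versus SPF were Ffar3 at 2.47 (SE 1.26, edgeR adjusted p = 0.513) and Ptgs2 at 1.935 (SE 0.92, edgeR adjusted p = 0.487). Among the negative ones were Gng2 at -2.19 (SE 0.91, edgeR adjusted p = 0.441) and Ccl24 at -2.19 (SE 0.91, edgeR adjusted p = 0.441). Slc13a2 was also negative, at -0.82 (SE 0.34, edgeR adjusted p = 0.445). edgeR called 0 in these lists in any comparison. Il13ra1, a chain of the IL-13 receptor, measured 36.4 and 28.2 CPM in AF, 36.7 and 42.3 CPM in GF, and 56.8 and 127 CPM in SPF, both SPF libraries lying above the others. The type 2 cytokine genes Il5 and Il13, and Il9, had 0 counts in all 6 libraries, as had the bitter receptor genes Tas2r108, Tas2r131, Tas2r138 and Tas2r143.

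Beside other epithelial cell types, the tuft cell genes shared the low level of SPF replicate 4 with the secretory and crypt lists, and had the highest median of these lists in AF versus GF. Their median level, as log2 CPM centred on the 6 libraries, was 1.18 and 0.96 in AF, 0.22 and 0.58 in GF, and -0.45 and -2.59 in SPF. For enteroendocrine cells it was 0.65 and 0.89 in AF, 0.068 and 1.14 in GF, and -0.36 and -2.47 in SPF, and for goblet cells 0.23 and 0.14 in AF, 0.18 and 0.49 in GF, and 1.18 and -2.27 in SPF. SPF replicate 3 thus lay above all other libraries for goblet cells and below the AF and GF libraries for tuft and enteroendocrine cells. For enterocytes, the absorptive cells, it was -0.23 and -0.77 in AF, -0.31 and 0.13 in GF, and -0.0040 and 0.91 in SPF, with SPF replicate 4 highest. In AF versus GF the median log2 fold change was 0.11 for 21 enteroendocrine genes, -0.17 for 11 goblet genes, -0.93 for 10 Paneth cell genes and -0.46 for 11 crypt stem cell genes, against 0.61 for the tuft cell genes. The Paneth cell and enteroendocrine genes stood higher than the tuft cell genes in GF versus SPF, and lower in AF versus SPF. In GF versus SPF the median was 2.14 for Paneth cell genes, with 10 of 10 positive, and 1.71 for enteroendocrine genes, with 21 of 21 positive, against 1.61 for the tuft cell genes. In AF versus SPF it was 1.16 for Paneth cell genes and 1.72 for enteroendocrine genes, with 20 of 21 positive, against 2.27. The general epithelial list, with Epcam and Cdh1, varied from 4852 to 6176 CPM in summed level over the libraries. The differences between lists were not tested, and nor was the part of cell make-up in the fold changes.

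**Figure D4:**
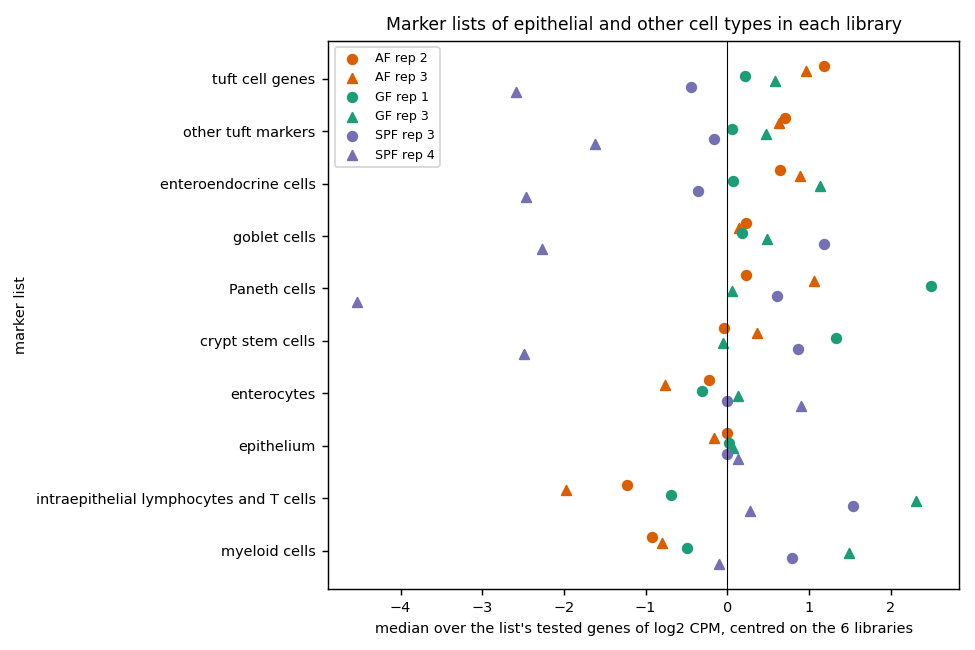
Median level of marker lists (rows) in each library, as log2 CPM centred on the mean of the 6 libraries, with colours for groups and shapes for libraries. The tuft cell genes run from 1.18 in AF replicate 2 to -2.59 in SPF replicate 4, and the lymphocyte list has GF replicate 3 highest.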

How the data were processed

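RNA-seq of 6 libraries of sorted small intestinal epithelium was analysed from RSEM gene tables. The tables hold expected counts, unscaled between libraries, as the authors deposited them per the file headers; reads that several genes share are split by estimate. Per the file headers, the deposited TPM are scaled by effective length to a fixed total per library. Per the submitters' processing notes, STAR 2.5.2b, RSEM, edgeR 3.16.5 and GRCm38 (mm10) were used. The annotation release, read filters and strandedness were not stated in those notes. RSEM's posterior standard deviation, a value of another kind deposited by the authors, was at most 0.964% of the count for members with 10 counts or more.

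Counts were rounded (23.5% of values above 0 were not whole within 0.005). Symbols came from GENCODE M21 and matched 51633 of 51912 genes; the rest took at most 0.0842% of the counts in any library. Several members overlap genes on the opposite strand, so their reads cannot be told apart without strand. filterByExpr kept 13644 genes and 27 of the 31 members. edgeR's quasi-likelihood test (estimateDisp, glmQLFit with legacy on) fitted all 6 libraries with 3 group means, on 3 residual degrees of freedom, with a biological coefficient of variation of 0.368. The threshold for a call was a p below 0.05 after Benjamini-Hochberg adjustment over all genes tested. SEs are the absolute log2 fold change over the square root of F. Groups are called apart where their libraries do not overlap, in TMM-scaled CPM unless another scaling is named. The fit was tested on simulated data.

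Members and lists were chosen with earlier results of these data known. The rule for fold changes took Dclk1, Pou2f3, Il25 and Trpm5 where tested, plus the 4 members with the smallest p in each comparison; others are given as levels, and genes outside the list among the 3 of each list with the smallest p. Genes named for standing at 0 counts were chosen after their values were seen. Alternatives were DESeq2, edgeR's likelihood ratio test, limma on log2(TPM + 1) for genes at 1 TPM or more in 2 libraries, other scalings and filters, only the groups compared, and each library left out. Versions were edgeR 4.0.16, DESeq2 1.42.0 and limma 3.58.1 under R 4.3.3.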

Additional observations from a re-analysis of the deposited data

How the results depend on the processing

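Over all members tested, 25 of 27 were positive in AF versus GF in the first fit, 22 of 27 with library totals and 16 of 24 with limma. Many of the 22 fold changes named for single members were chosen for a small p in the first fit, and the alternatives reuse its libraries. Their signs were thus unlikely to change, and all 22 kept them in the 303 values from the alternatives. 43 of these passed the threshold where the first fit did not, without the low-count filter, with DESeq2 or the likelihood ratio test, or without SPF replicate 3. Without the low-count filter, edgeR called 11 of the 31 members in GF versus SPF, 19 in AF versus SPF and 18 in AF and GF together versus SPF, and 13, 15 and 15 genes of the other tuft and pathway lists, with 3 of these lists in AF versus GF. Of all genes, that fit called 2.13%, 3.53% and 3.68% in the comparisons with SPF, in the same order, and 1.16% in AF versus GF. DESeq2 called 9 members in AF versus SPF and 7 in AF and GF together versus SPF, against 2.03% and 1.82% of all genes. The likelihood ratio test called 6 and 3, against 2.18% and 1.97%. In the other lists DESeq2 called 1 and the likelihood ratio test 1 gene in AF versus GF, 1 and 2 in AF versus SPF, and 2 and 2 in AF and GF together versus SPF. Leaving out 1 library gave 0 to 15 called members in GF versus SPF, 0 to 19 in AF versus SPF and 0 to 19 in AF and GF together versus SPF, the highest in each without SPF replicate 3. The members' medians ranged from 0.87 to 3.30, 1.56 to 4.07 and 1.26 to 3.72, lowest without SPF replicate 4 and highest without SPF replicate 3. The other lists gave 0 to 12, 0 to 15 and 0 to 19 calls. Calls over all genes were likewise most frequent without SPF replicate 3 in each comparison with SPF, so the rise was not limited to these lists. That fit had a lone SPF library, assumed to vary like the others, so its counts do not test the groups. With limma on log2(TPM + 1), the members' medians were 1.14 in AF versus SPF and 1.04 in AF and GF together versus SPF. Its pseudocount understates changes of low genes. The members apart with AF above GF were 13 with library totals and 12 with TPM, alternatives chosen after seeing the data. Beyond the constructions named, the cause was not tested. The fit of only the groups compared could not be told from the first fit for AF and GF together versus SPF, which uses every library. No paired analysis was possible because the groups share only 1 replicate number. Depth limits Il25, Gnat3, Gng13 and Gnb3, each at 8 counts or fewer per library.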
